A study of Mus musculus with 2 samples.

Results

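The genes described here encode the sonic hedgehog ligand, its receptors and co-receptors, and the GLI transcription factors: Shh, Ptch1, Hhip, Boc, Gas1, Smo, Gli1, Gli2 and Gli3. They were chosen by gene name, and they are 9 of 29875 genes named on the array. The 9 genes are covered by 15 probes, 5 genes by more than 1 probe and 4 genes by a single probe, and 14 of the 15 probes were bright enough to be tested. RNA came from ureters of wildtype NMRI mouse embryos (sex not determined), which were dissected at E12.5 and kept as explants on membranes for 18 h. One group received BIO at 10 µM, the other the solvent DMSO at 2 parts in 1000, and untreated or uncultured ureters were not analysed here. BIO is an indirubin that inhibits the kinase GSK3 and thereby stabilizes beta-catenin, the effector of canonical WNT signaling. Every sample was a pool of ureters, which hold epithelium, mesenchyme, vessels and nerves together.

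In the embryonic ureter, SHH is made by the epithelium and acts on the surrounding mesenchyme. There it binds the receptor PTCH1, with the help of the co-receptors BOC, GAS1 and CDON. Ligand binding frees SMO, which moves into the primary cilium and turns GLI2 and GLI3 from repressors toward activators, and Ptch1, Hhip and Gli1 are themselves switched on by the pathway in many tissues.

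The question here was whether these genes differed between BIO and control explants. Of the 9 members, 1 fell with BIO (Shh), 0 rose and 8 did not pass the test, which was limma's moderated test of the log2 ratio with Benjamini-Hochberg adjustment over all tested probes. With the same test 23.9% of all tested genes were called, 14.8% as fallen and 9.13% as risen. At an unadjusted p below 0.05 there were 4 of the 9 members (Shh, Hhip, Boc and Gas1), beside 36.7% of all tested genes. The median log2 ratio of BIO over control was 0.07 over the members and -0.01 over all tested genes, and the median size of the ratio without its sign was 0.11 and 0.19. By the brightest probe of each gene, the mean ratios formed a lower and a higher group. The mean log2 ratios of Shh, Hhip, Boc and Gas1 lay between -0.43 and -0.29, and those of Ptch1, Smo and the 3 Gli genes between 0.07 and 0.11. Other probes did not keep this split: the second Ptch1 probe had a mean of -0.24, and the dimmer Gas1 probes 0.11 and 0.18. Array 2 alone did not keep it either, with the brightest Ptch1 probe at -0.17 and that of Gas1 at -0.15. None of the 9 reached a 2-fold difference.

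There were 2 arrays with 2 channels each, called array 1 and array 2 after the replicate they hold. On array 1 the BIO RNA was red and the control RNA green, and array 2 had the dyes exchanged. In each channel between 70.1% and 80.9% of the spots for genes stood well above background. Axin2, a direct target of canonical WNT signaling that serves as a check of the treatment, rose by 2.27 on array 1 and 2.03 on array 2 on the log2 scale (adjusted p = 3.41e-05). Mesenchymal and endothelial markers were mostly lower with BIO: 9 of 12 mesenchymal markers fell and 1 rose, and 8 of 8 endothelial markers fell. Of all tested genes 14.8% fell. In such whole explants, fewer cells of a type and less RNA per cell cannot be told apart. Signals are given on the processed scale of the scanner software. They are no measure of the level of one gene against another, since probes differ in brightness.

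Probes of 60 bases measured the transcripts, and for Ptch1, Hhip, Smo and Gas1 more than 1 probe could be read. Their central 30 bases are shown 5′ to 3′ in the sense of the transcript, since the direction of Ptch1 and Gas1 turns on which probe is read and the other genes serve for comparison. The capitals mark tandem repeats, units of 2 to 4 bases present at least 3 times in a row, and coordinates are those of the whole probe in mm9.
Shh, chr5:28783983-28784042, minus strand: gaactgtactcacagtgagggaaagattat
Ptch1 brightest probe, chr13:63610298-63610357, minus strand: atttgtaaaagaaaagatctttgctgatat
Ptch1 second probe, chr13:63612879-63612938, minus strand: agaggagggactcaaaggtggaggtcatag
Hhip brightest probe, chr8:82494280-82494339, minus strand: tgtaggttaatagtcttttgtctctgttac
Hhip second probe, chr8:82490729-82490788, minus strand: atgagcatgaaagacttctagtaggaaaat
Smo brightest probe, chr6:29711225-29711284, plus strand: tcatagtgccccacattcaagaaccagaca
Smo second probe, chr6:29710919-29710978, plus strand: CACACACAgACACACACACACatacactct
Gas1 brightest probe, chr13:60276399-60276458, minus strand: ttgaacaatgcatgttttttatcctaaagc
Gas1 second probe, chr13:60278243-60278302, minus strand: catgccagaagtgcgcggaactcggacaaa
Gas1 dimmest probe, chr13:60277268-60277327, minus strand: GGCGGCGGCgctgctgcggcgggcggccgc
The second Smo probe consists largely of a CA repeat in this stretch, and G and C made up 85% of all bases of the dimmest Gas1 probe but 38.3% of the brightest one. G and C were rare in the brightest Ptch1 probe (21.7%), whereas its second probe had 53.3%. The file places the brightest Ptch1 probe on an Ensembl transcript and the second on the RefSeq transcript, so the probes of Ptch1 may not report the same RNA forms.

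Shh, the ligand, had the largest mean difference among the members, although on array 2 alone Boc was lower. Its signal was 298 in control against 214 under BIO on array 1, and 315 against 256 on array 2. The BIO value was lower than the control value on each array. The log2 ratio of BIO over control was -0.58 on array 1 and -0.28 on array 2, with a mean of -0.43 ± 0.12 (SE, n = 2; adjusted p = 0.034). This corresponds to 1.35-fold less Shh RNA with BIO. The 95% interval ran from -0.71 to -0.16, and 80.9% of all tested genes had a smaller difference. SEs and 95% intervals, here and below, are limma's moderated values, which draw on the spread of all tested probes. They are not the SE of the 2 arrays alone and can be smaller where the arrays differ. The Shh probe was dim, and each value is the mean of 3 spots. Its call was close to the threshold: it was kept under 3 of 8 other ways of processing and lost under 5, where the adjusted p reached 0.229, while the log2 ratio stayed between -0.57 and -0.37.

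Markers of the epithelium, where Shh is made, gave the following values beside it. Of 12 epithelial markers, 4 fell (Krt19, Cdh1, Krt8 and Krt18), 0 rose and 8 did not pass, beside 14.8% fallen and 9.13% risen of all tested genes. The median log2 ratio of these markers was -0.21. Their summed signal was 97239 and 99143 in control and 62137 and 68529 with BIO, a ratio of 0.639 on array 1 and 0.691 on array 2, and 0 of the 12 were at 0. The bright keratin probes weighed most in this sum: without Krt8 and Krt18, left out after their values were seen, the ratio was 0.848 and 0.773. Epcam, a general marker of epithelial cells, had a log2 ratio of 0.03 on array 1 and 0.01 on array 2. The ratio of Shh was below that of Epcam by 0.62 and 0.29 on the log2 scale, and above that of Cdh1, the epithelial cadherin, by 0.37 and 0.86. Some epithelial markers thus lay above and others below Shh on both arrays, and the part of epithelial content in the value of Shh was not tested.

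**Figure D1:**
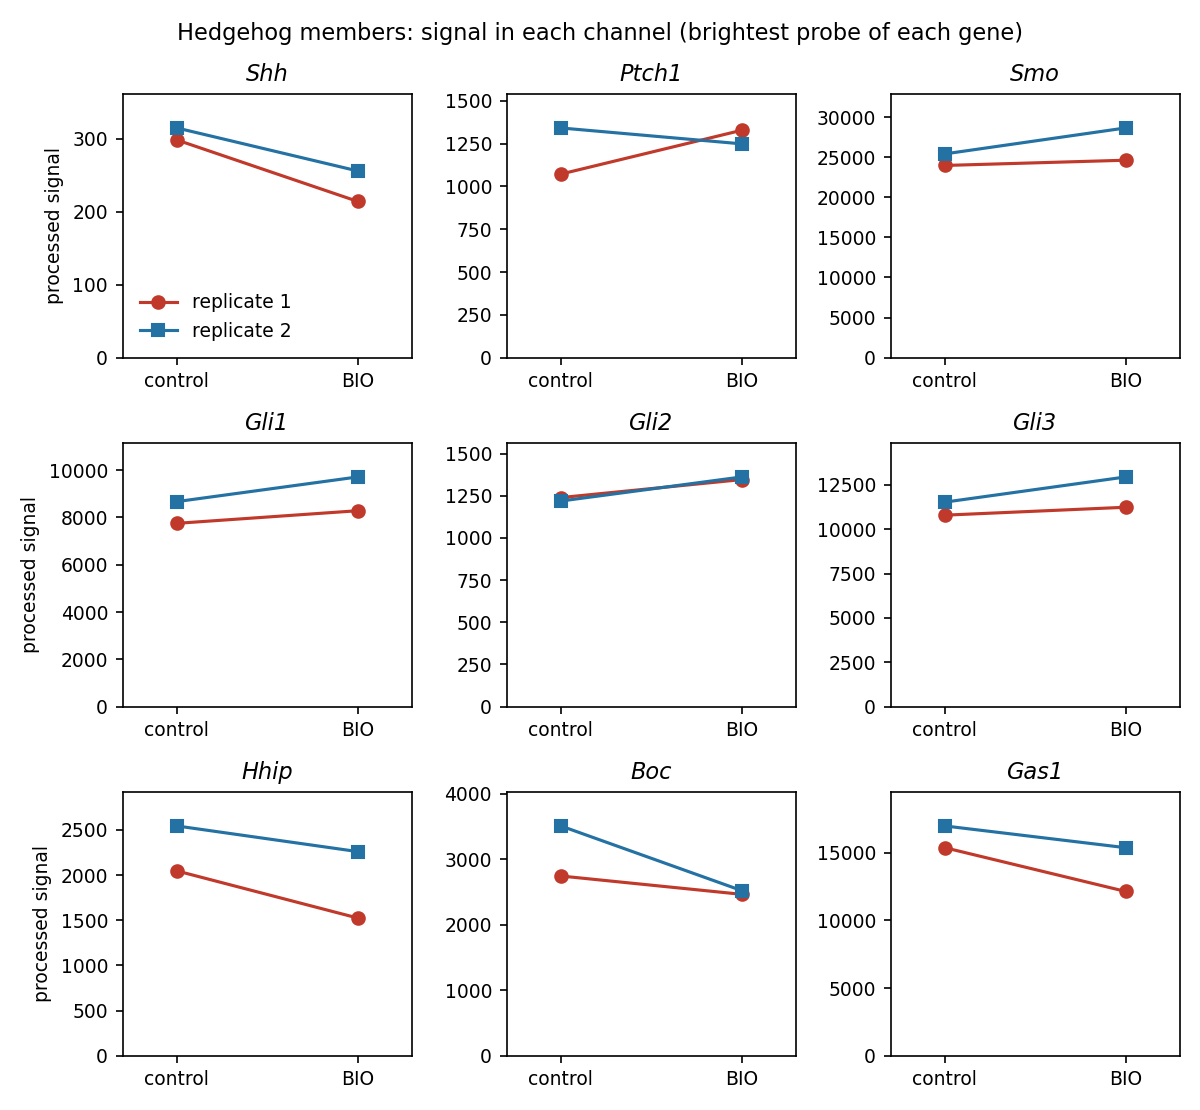
Processed signal (vertical axis, linear from 0) of the brightest probe of each of the 9 members in the control and the BIO channel, with a line for each array (red circles, replicate 1, here array 1; blue squares, replicate 2, here array 2). Both lines slope down for Shh, Hhip, Boc and Gas1 and slightly up for Smo, Gli1, Gli2 and Gli3, and the lines of Ptch1 cross. Only Shh passed the test.

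Ptch1, which encodes the receptor that holds SMO inactive and is a common readout of the pathway, did not give 1 direction. The signal of its brightest probe was 1072 in control against 1327 under BIO on array 1, and 1341 against 1248 on array 2. The control values of the arrays differed by more than the BIO values. The log2 ratio was 0.32 on array 1 and -0.17 on array 2, with a mean of 0.08 ± 0.14 (moderated SE, n = 2, adjusted p = 0.742). The gap between the arrays was larger than that of 92.5% of all tested genes. The second Ptch1 probe gave signals of 355 against 337 on array 1, and 425 against 349 on array 2. Its log2 ratio was -0.15 and -0.33, with a mean of -0.24 (adjusted p = 0.162). This probe was therefore lower with BIO on both arrays, and below the brightest probe by 0.47 on array 1 and 0.17 on array 2 on the log2 scale. With both probes averaged, the log2 ratio of Ptch1 was -0.08 (adjusted p = 0.660), and the brightest probe gave -0.02 when the arrays were centered on their medians and not by loess. The interval of the brightest probe, from -0.24 to 0.39, covers changes between 1.18-fold lower and 1.31-fold higher. The array with BIO in red gave the positive ratio, and with 1 array for each orientation, dye and replicate cannot be told apart.

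Hhip encodes a membrane protein that binds hedgehog ligands and limits their range. The signal of its brightest probe was 2047 in control against 1525 under BIO on array 1, and 2545 against 2261 on array 2. The BIO value was lower on each array, although the BIO value of array 2 lay above the control value of array 1. The log2 ratio was -0.48 and -0.21, with a mean of -0.34 ± 0.12 (SE, n = 2; adjusted p = 0.071). The second Hhip probe gave -0.19 and -0.38 (mean -0.28, adjusted p = 0.109). The order of the arrays differed between the probes, with the lower ratio on array 1 for one and on array 2 for the other. Both probes were negative on both arrays, and neither passed the test. Under the 8 other ways of processing the log2 ratio of Hhip lay between -0.41 and -0.31, with adjusted p between 0.054 and 0.393.

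The co-receptors Boc, Gas1 and Cdon present the ligand to Patched. For Boc the signal was 2746 in control against 2466 under BIO on array 1, and 3511 against 2524 on array 2. The log2 ratio was -0.16 and -0.53, with a mean of -0.34 ± 0.13 (SE, n = 2; adjusted p = 0.088). The brightest Gas1 probe had a signal of 15377 in control against 12146 under BIO on array 1, and 16985 against 15379 on array 2. The BIO value of array 2 and the control value of array 1 were almost equal. Its log2 ratio was -0.44 and -0.15, with a mean of -0.29 ± 0.12 (SE, n = 2; adjusted p = 0.117). The other Gas1 probes were far dimmer, with signals from 174 to 285 for the second and from 71.8 to 116 for the dimmest, and both were above 0 on both arrays. Their mean log2 ratios were 0.11 (adjusted p = 0.518) and 0.18 (adjusted p = 0.262). The brightest probe lay below them by 0.26 to 0.64 on the log2 scale, and the mean over all 3 probes was 0.00 (adjusted p = 0.996). The direction of Gas1 thus depends on the probe.

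Cdon, a paralog of Boc, fell with BIO. Its signal was 2291 in control against 1635 under BIO on array 1, and 2488 against 1906 on array 2. Its log2 ratio was -0.49 and -0.42, with a mean of -0.45 (adjusted p = 0.019), and the second tested probe gave a mean of -0.34 without passing. The brightest probes of all 3 co-receptors were negative on both arrays, as were 38.1% of all tested genes. The test was passed by 1 of the 3, beside 23.9% of all tested genes. Lrp2, an endocytic receptor that also binds SHH, fell by 0.89, while its second tested probe was at -0.07. Mesenchymal markers had a median log2 ratio of -0.76, and their summed signal was 342058 and 376026 in control and 210152 and 232034 with BIO, a ratio of 0.614 on array 1 and 0.617 on array 2, with 0 of 12 markers at 0. The bright probes of Col1a1, Col1a2, Col3a1 and Vim weighed most in this sum. Of the 12 markers 9 fell, 1 rose (Prrx1, by 0.39) and 2 did not pass (Tbx18 at -0.22 and Tcf21 at -0.32). The part of mesenchymal content in the values of Boc, Gas1 and Cdon was not tested.

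**Figure D2:**
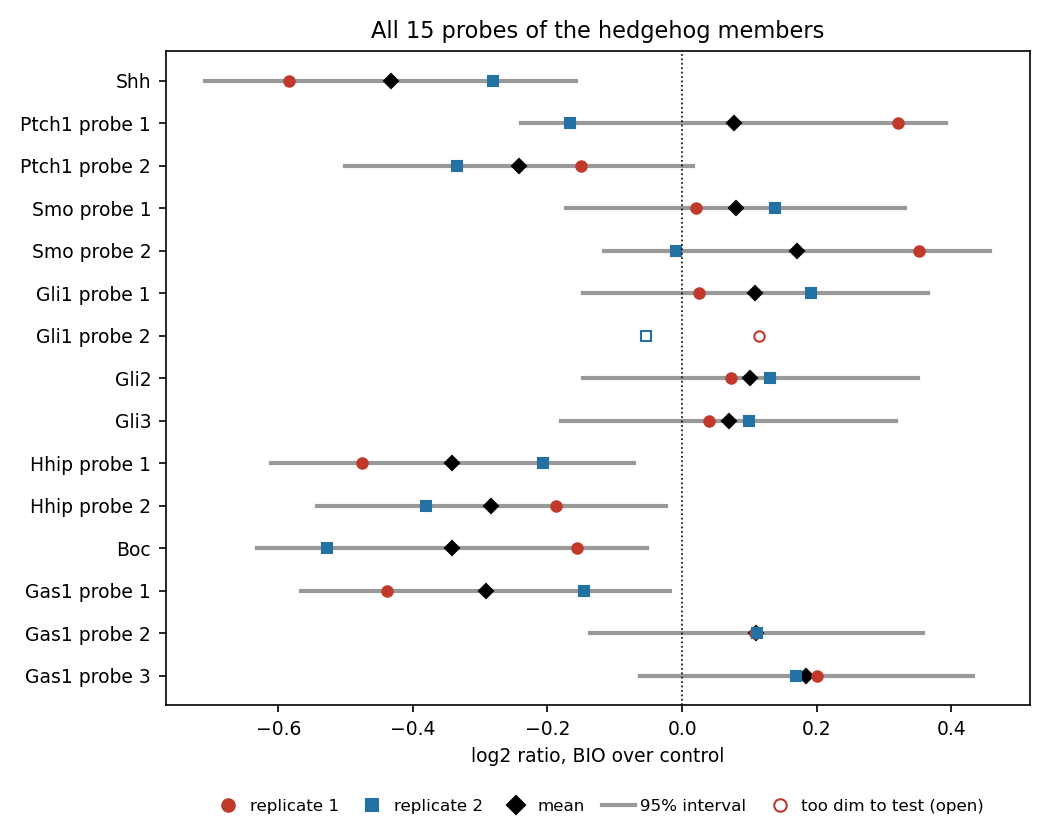
Log2 ratio of BIO over control (horizontal axis) for all 15 probes of the members, with the value of each array, the mean and its 95% interval. Probes of a gene are numbered by brightness, and the open symbols are the Gli1 probe that was too dim to test. The intervals of Shh, both Hhip probes, Boc and Gas1 probe 1 lie below 0 before adjustment for the number of probes, and the probes of Ptch1 and of Gas1 point in opposite directions.

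Smo encodes the membrane protein that relays the signal into the cell. Its brightest probe had a signal of 23962 in control against 24615 under BIO on array 1, and 25404 against 28638 on array 2. The log2 ratio was 0.02 and 0.14, with a mean of 0.08 ± 0.11 (SE, n = 2; adjusted p = 0.661) and a 95% interval from -0.17 to 0.33. A change beyond 1.26-fold upward or 1.13-fold downward lay outside this interval. The second Smo probe, which holds the CA repeat, gave 0.35 and -0.01 (mean 0.17, adjusted p = 0.374).

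The GLI factors carry the signal to the genome. Gli1, an activator that is itself a target of the pathway, had a signal of 7749 in control against 8283 under BIO on array 1, and 8668 against 9710 on array 2. The log2 ratio was 0.03 and 0.19, with a mean of 0.11 ± 0.11 (SE, n = 2; adjusted p = 0.540) and a 95% interval from -0.15 to 0.37. Another Gli1 probe was not well above background in the BIO channel of array 1 and the control channel of array 2, with signals from 10.4 to 13.4, and was not tested. Gli2, the main activator, had a signal of 1239 in control against 1346 under BIO on array 1, and 1219 against 1362 on array 2. Its log2 ratio was 0.07 and 0.13, with a mean of 0.10 (adjusted p = 0.557). The BIO value of Gli2 was higher than the control value on each array. Gli3, which acts mainly as a repressor, had a signal of 10792 in control against 11238 under BIO on array 1, and 11526 against 12945 on array 2. Its log2 ratio was 0.04 and 0.10, with a mean of 0.07 (adjusted p = 0.701).

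Positive ratios on both arrays were seen for 34.7% of all tested genes. The 3 Gli genes were among them, at means between 0.07 and 0.11, and 0 of 3 passed the test, beside 23.9% of all tested genes. Their 95% intervals together ran from -0.18 to 0.37. Gli1, the target gene, differed from Gli3 by -0.01 on array 1 and 0.09 on array 2 on the log2 scale, and from Gli2 by -0.05 and 0.06. The ratio of Shh was below that of Gli1 by 0.61 and 0.47, and that of Hhip was below Gli1 by 0.50 and 0.40. Ligand and Gli1 thus lay apart on both arrays. Against Ptch1, the ratio of Shh was lower by 0.90 on array 1 but by 0.11 on array 2.

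**Figure D3:**
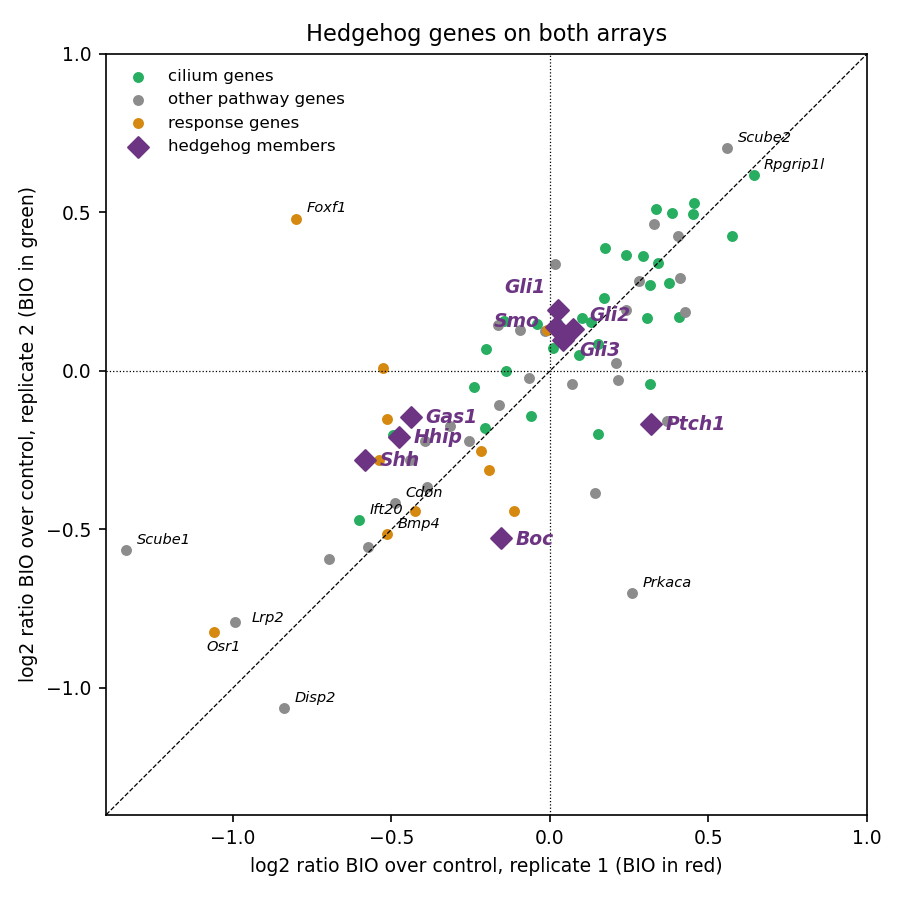
Log2 ratio of BIO over control on array 1 (horizontal axis) and array 2 (vertical axis) for the members (purple diamonds), other pathway genes, response genes and cilium genes, with the brightest probe for each gene. Points on the dashed line had equal ratios on both arrays. Shh, Hhip, Gas1 and Boc lie in the lower left part, Smo and the Gli genes just above 0, and Ptch1 at the lower right, where the arrays differ in sign.

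Further genes of the pathway reached larger log2 ratios, up to 0.95 in size. Of 32 other pathway genes 3 rose, 7 fell and 22 did not pass, beside the 9.13% risen and 14.8% fallen of all tested genes, with a median log2 ratio of -0.03. Centered on medians 1 rose and 4 fell, and with the deposited rounded scores in place of the scanner values 4 rose and 2 fell. Those that act on release and spread of the ligand moved in both directions. Scube2, which helps release lipid-modified SHH from cells, rose by 0.63 (0.56 and 0.70 on the arrays, adjusted p = 0.0050) with 2 of 2 probes risen. Its paralog Scube1 fell by 0.95 (-1.34 and -0.56, adjusted p = 0.0059). Disp2, a relative of the transporter that exports the ligand, fell by 0.95 (-0.84 and -1.06, adjusted p = 0.00084), whereas Disp1, the exporter itself, had ratios of 0.37 and -0.16 and did not pass. Dhh, another hedgehog ligand, fell by 0.64 at signals of only 15.4 to 54.3 (adjusted p = 0.0043), and Ihh was at -0.24 (adjusted p = 0.154). At the cell surface Gpc3, a glypican that competes with Patched for the ligand, fell by 0.57 (adjusted p = 0.0073). The second tested probe of Gpc3 was at -0.29 and was not called. Gpc6, a relative of Gpc3 named here after its values were seen, fell by 0.38 (adjusted p = 0.038).

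Among the regulators between SMO and the GLI factors, Evc2 and Efcab7 passed the test. Evc2, which couples active SMO to its effectors at the base of the cilium, rose by 0.41 (adjusted p = 0.027) with 2 of 2 probes risen. Efcab7, which anchors the EVC complex, rose by 0.39 (adjusted p = 0.035). Sufu, which retains GLI proteins, had ratios of 0.43 and 0.18 (mean 0.31, adjusted p = 0.095), and its second probe gave 0.32. Kif7, a ciliary kinesin that regulates GLI processing, was at 0.21 and -0.03 (mean 0.09, adjusted p = 0.624). GSK3, the kinase that BIO inhibits, also phosphorylates GLI proteins. Gsk3b had ratios of 0.41 and 0.29 (mean 0.35, adjusted p = 0.051), while its 3 probes spread from 0.00 to 0.35. Gsk3a was at -0.16 and 0.14 (mean -0.01, adjusted p = 0.966).

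Other genes known to respond to hedgehog signaling in embryonic mesenchyme were mostly below 0. The members were left out of this list, so the target genes Ptch1, Hhip and Gli1, which did not pass the test, are not counted in it. Of the 12 listed genes 4 fell, 0 rose and 8 did not pass, beside 14.8% of all tested genes that fell, and the median log2 ratio was -0.27. Centered on medians the fallen numbered 1, and with the deposited scores 0. Osr1, a mesenchymal transcription factor gene, fell most, by 0.94 (-1.06 and -0.82, adjusted p = 0.00090), with signals of 1804 in control against 875 under BIO on array 1, and 1757 against 1024 on array 2. Bmp4, the signal through which the mesenchyme supports muscle and urothelium, fell by 0.51 (-0.51 on each array, adjusted p = 0.011), from 50650 and 51809 to 33229 and 36815. Mycn, a driver of proliferation, fell by 0.41 (adjusted p = 0.037). Nkx3-2, a mesenchymal homeobox gene, fell by 0.43 (adjusted p = 0.023) at signals of 16.5 to 36.5.

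Foxf1 encodes the transcription factor that links SHH to Bmp4 in the ureter. Its signal went from 4882 in control to 2924 with BIO on array 1, and from 3964 to 5404 on array 2. The log2 ratio was -0.80 on array 1 and 0.48 on array 2 (mean -0.16 ± 0.25, moderated SE, n = 2, adjusted p = 0.700), and its second probe had a mean of -0.15. The arrays thus opposed each other, and no direction can be given for Foxf1. Foxf2 had ratios of -0.53 and 0.01 (mean -0.26, adjusted p = 0.236), and Foxl1, -0.51 and -0.15 (mean -0.33, adjusted p = 0.092). All 3 forkhead genes were lower on array 1 than on array 2. The response genes were listed for their response in embryonic mesenchyme, and mesenchymal markers fell as given above. Whole explants do not show which cells expressed these genes, and the part of mesenchymal content in their values was not tested.

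Primary cilium genes, listed for transport in the cilium and for its transition zone, lay mostly above 0. Of 32 genes 6 rose, 1 fell and 25 did not pass, beside 9.13% risen and 14.8% fallen of all tested genes, with a median log2 ratio of 0.14. On both arrays 21 of the 32 were positive, as were 34.7% of all tested genes. Rpgrip1l, a protein of the ciliary transition zone, rose by 0.63 (0.64 and 0.62, adjusted p = 0.0045). Of the same zone, Cep290 rose by 0.47 (adjusted p = 0.016) and Tmem231 by 0.44 (adjusted p = 0.023). Among the transport genes Ift74 rose by 0.50 (adjusted p = 0.014), Ift57 by 0.42 (adjusted p = 0.029) and Dync2h1, the motor of return transport, by 0.49 (adjusted p = 0.014). Ift20, which links transport to the Golgi, fell by 0.54 (-0.60 and -0.47, adjusted p = 0.010). The second probe of Ift74 was at -0.07, and that of Tmem231 was positive but not called. The number of risen cilium genes was 0 when centered on medians and 2 for processed signals, but 13 with the deposited scores.

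**Figure D4:**
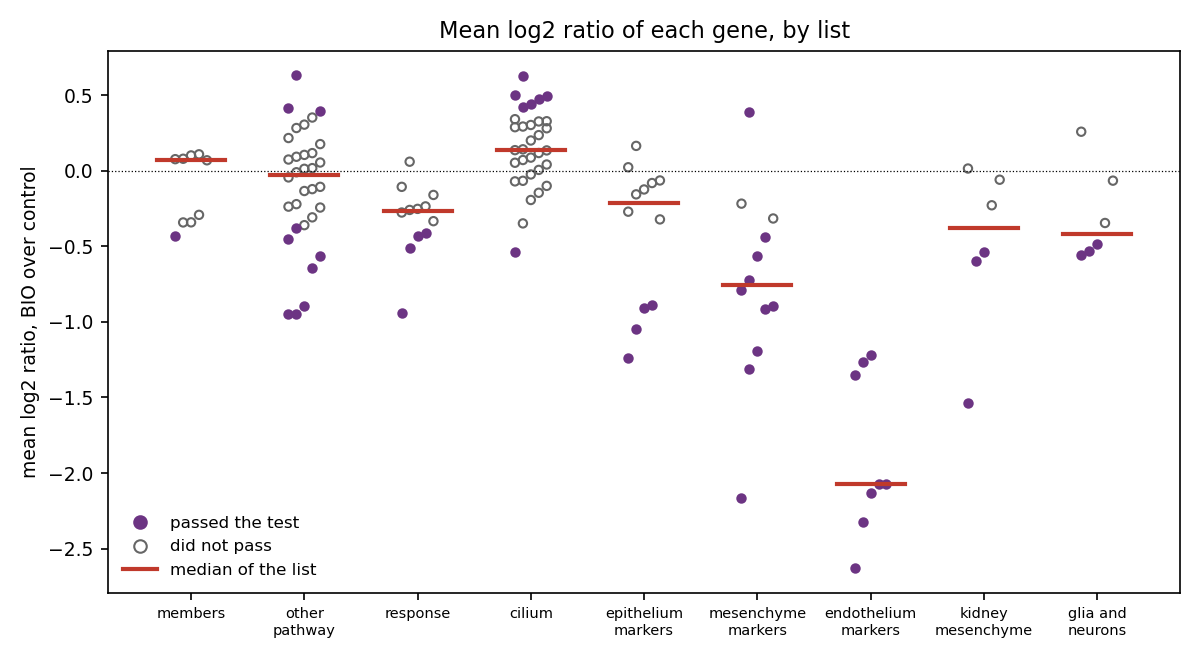
Mean log2 ratio of BIO over control (vertical axis) for each tested gene of the members, 3 lists of hedgehog-related genes and 5 lists of cell type markers; filled points passed the test, open points did not, and the red line is the median of the list. The members lie between -0.43 and 0.11, the response genes have a median of -0.27 and the cilium genes of 0.14. Endothelial markers have a median of -2.07.

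Over both arrays, 8 of the 9 members had the same sign in both replicates, 4 positive and 4 negative, beside 72.9% of all tested genes. The median gap between the log2 ratios of the arrays was 0.27 for the members and 0.16 for all tested genes. Shh, Hhip and Gas1 were lower on array 1, whereas Boc was lower on array 2. The median over the members was 0.02 on array 1 and -0.15 on array 2, so that its sign depended on the array. By probe, 1 of the 14 tested member probes was called, beside 23.2% of all tested probes. A rule of intensity and fold modelled on the one the study states for other arrays, here with a signal of at least 100 in the brighter channel and at least a 2-fold difference the same way on both arrays, was met by 0 of the 9 members and by 2.23% of all genes.

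**Figure D5:**
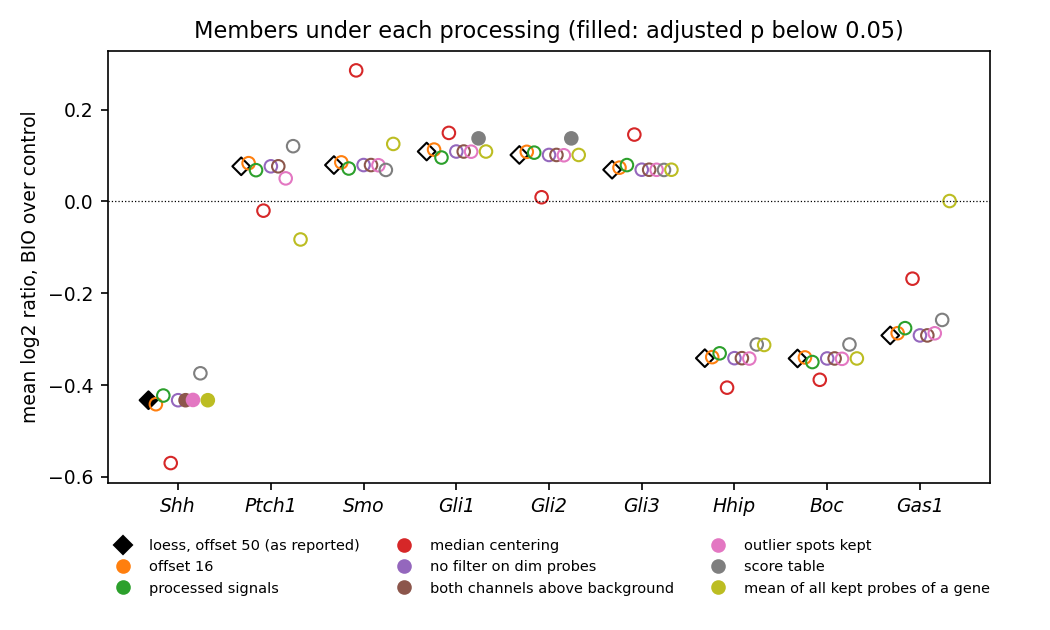
Mean log2 ratio of BIO over control (vertical axis) of each member under the reported processing (black diamonds) and 8 alternatives (circles); filled symbols have an adjusted p below 0.05. Shh stays between -0.57 and -0.37 but is filled in only some of the settings, Hhip and Boc stay below 0, and Ptch1 and Gas1 reach or cross 0.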

How the data were processed

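Per the labels, each of 2 arrays compared BIO with control RNA, with dyes exchanged, and the array was the replicate. The authors quantified the arrays with Agilent Feature Extraction 10.7.3.1. The deposited files give raw and processed spot intensities and a table of 1 score per probe, which by its values is a signed fold change rounded to 1 decimal; its centering is not given in the sources used here. Mean intensities were background-corrected (normexp, offset 50) and log2 ratios loess-normalized within arrays in limma 3.58.1 (R 4.3.3). Control and outlier spots were left out, the 4 spots of a probe averaged, and a probe tested when over a share of 0.5 of its spots was well above background in the control channel, or the BIO channel, of both arrays (28824 probes, 21574 genes). The null of a ratio of 0 was tested (lmFit, eBayes, two-sided) at a Benjamini-Hochberg adjusted p of 0.05. SEs and 95% intervals are the moderated ones of this test, and the intervals are not adjusted. A gene was represented by its brightest probe. The number of arrays limits the precision (median SE 0.11), and the offset pulls ratios of dim probes toward 0. For the intensity and fold rule, processed signals below 15 were set to 15 and ratios divided by the median of their array. Probes were named through RefSeq genes of GRCm38.p6, which added 0 member probes; member coordinates are those of the files (mm9), and exon or UTR boundaries were not used here. The test was tried on simulated data. Alternatives were offset 16, processed signals, median centering, no filter on dim probes, a filter on both channels, outlier spots kept, all probes of a gene averaged, the score table, and each array alone. The members and lists were chosen with earlier results of these data known. All members were named, with the called genes of the hedgehog, response and cilium lists up to a fixed number, largest change first, and a few preset genes, of which 1 is not reported here; the lists of other pathway genes and response genes share 1 gene. Axin2, Epcam, Cdh1 and the other markers, Ihh and Disp1 are named as comparisons outside this rule. Of the marker lists, 3 of 6 kidney mesenchyme genes fell, and 3 of 6 tested genes of Schwann cells and neurons, beside 14.8% of all tested genes.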

Additional observations from a re-analysis of the deposited data

How the results depend on the processing

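Limits: with 2 arrays, the differences seen in Hhip, Boc and Gas1 did not pass the test after adjustment. The test draws its spread largely from all tested probes, and not from the 2 arrays of a gene alone. Of 8 alternative ways of processing, Shh kept its call with both channels above background, with outlier spots kept and with all probes averaged (a single probe). It lost the call at offset 16 (-0.44, adjusted p = 0.054), with processed signals (-0.42, 0.092), median centering (-0.57, 0.062), no filter on dim probes (-0.43, 0.051, where more probes were adjusted for) and the score table (-0.37, 0.229), so that 0 members fell in each of these 5. The direction of Shh, Hhip, Boc, Smo and the 3 Gli genes was kept under all 8 and with either array alone. Ptch1 turned to -0.020 with median centering and to -0.083 with its probes averaged, and Gas1 turned to 0.0010 with its probes averaged. With the score table, Gli1 and Gli2 gained a call (0.14 each, adjusted p = 0.048), so that 2 members rose; both had an identical rounded score on both arrays, as did 22% of all tested genes. The median of the members was -0.020 with median centering. With each array left out, Ptch1 ranged from -0.17 to 0.32 and the median of the members from -0.15 to 0.020. The other pathway genes that rose numbered 1 with processed signals and 1 with median centering, against 3, and those that fell 4 with median centering and 2 by the score table, against 7. The response genes that fell numbered 1 with median centering and 0 by the score table, against 4. The cilium genes that rose numbered 2 for processed signals, 0 for median centering and 13 for the score table, against 6, and those that fell 0 with median centering and 2 by the score table, against 1. The cause was not tested. Over all genes, 1970 rose and 3184 fell as reported, against 827 and 1939 when centered on medians and 1929 and 1319 for the score table. The reported test already pairs BIO with control within each array. No paired analysis was possible beyond that test, because 1 ratio per array leaves no further block.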
